A study of Homo sapiens with 11 samples.

Results

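The enriched regions (peaks) of 2 methylation marks of histone H3 were compared in U2OS, a human osteosarcoma cell line. H3K4me3 and H3K9me3 are trimethylation of lysine 4 and of lysine 9. The peaks were taken whole, as deposited, from 1 list per mark and limited to chromosomes 1 to 22. They comprised 24227 H3K4me3 and 56182 H3K9me3 peaks, together 80409 of the 82813 peaks of both marks on all chromosomes and of the 407030 regions in all 8 lists of the series. In short, H3K4me3 peaks were fewer and wider, and H3K9me3 peaks were narrow and spread along every chromosome. Both marks were denser where replication origins were denser. Few peaks met a peak of the other mark, 13.3% of H3K4me3 and 5.91% of H3K9me3 peaks. These shares were still 2.80-fold and 2.73-fold those of fixed chromosome pieces of 2000 and 300 bp. Peaks that did meet were more often at sites of the ubiquitin ligase proteins CUL4A and CDT2, and also more often at origins. This was not compared among peaks of like width.

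Both marks, CUL4A and nascent strands were profiled in U2OS cells with intact RepID (WT), a protein that binds replication origins and recruits CUL4 to chromatin. The study's methods name no synchronization or drug treatment for these samples. Nascent strands, short new DNA kept after lambda exonuclease digestion, mark replication origins, of which 126050 lay on chromosomes 1 to 22. CDT2 was profiled in U2OS cells, which the description of the deposited data names as a stable line overexpressing full-length FLAG-RepID and the study's methods name as WT. SKP2 was profiled in HCT116, a colon carcinoma line, with intact RepID (WT) and after RepID knock-out (RepID KO), and the RepID KO cells also gave an origin list. Each condition had 1 sample, so differences between replicates are unknown and no test was made. Wilson 95% confidence intervals stand beside shares and cover counting error only, with neighbouring peaks counted as if they were independent. The lists give no read totals, and the sequencing depth is unknown. Coordinates are those of build hg19, counted from 1.

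H3K4me3 is best known at the start sites of active genes, and it is also associated with origins that fire early in S phase. H3K9me3 is known from constitutive heterochromatin, from silenced repeats and from clusters of zinc-finger genes, often as wide domains, and is associated with late replication. The CRL4 ubiquitin ligase is built on CUL4A and finds some of its substrates through CDT2, and the SCF ligase does so through SKP2. Both ligases help to remove the licensing factor CDT1, so that an origin fires only once per cell cycle.

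H3K4me3 peaks were wide. Their median width was 1902 bp, with an interquartile range of 599 to 3449 bp and a maximum of 22721 bp. H3K9me3 peaks had a median of 322 bp, an interquartile range of 237 to 577 bp and a maximum of 4269 bp. Of the H3K9me3 peaks, 70.3% were narrower than 500 bp, and the list held no wide domain of the kind the mark is known for. Although the H3K9me3 list was longer, it covered 26025411 bp (0.904% of the summed chromosome length), against 55089067 bp (1.91%) for H3K4me3. The H3K4me3 widths formed 2 groups, a larger one of peaks of about 2000 to 5000 bp and a smaller one near the shortest length of 200 bp. The median H3K4me3 width varied 1.60-fold between chromosomes, from 1407 bp on chromosome 13 to 2255 bp on chromosome 17. The median H3K9me3 width varied less and lay between 299 and 340.5 bp on all 22.

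**Figure D1:**
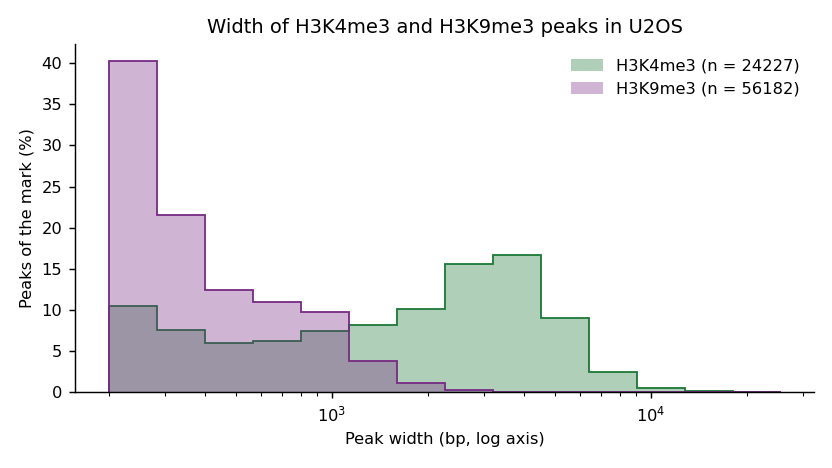
Percentage of the peaks of each mark (vertical axis) by peak width in bp (horizontal log axis), for H3K4me3 in green and H3K9me3 in purple. H3K9me3 had 40.3% of its peaks in the narrowest bin, from 200 to 282 bp, whereas H3K4me3 had 10.4% there and its highest bin, 16.7%, between 3200 and 4524 bp.

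Width and strength went together for H3K4me3 and not for H3K9me3. The authors' fold enrichment over the control had a median of 7.10 for H3K4me3 and 4.03 for H3K9me3, and its 90th percentile was 15.8 and 5.57. Depth and antibody differ between the lists in unknown ways, so these values stand side by side and rank no mark above the other. Over the peaks of a list, the rank correlation of width with fold enrichment was 0.72 for H3K4me3 and -0.08 for H3K9me3. These correlations describe peaks of 1 library each, and width and fold come from the same caller. The median −log10 q was 12.3 for H3K4me3 and 2.55 for H3K9me3. A value of at least 2 was reached by 95% and 66.8% of the peaks, so many H3K9me3 peaks lay close to the weak end of their list.

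The spacing of the marks also differed. In both lists the smallest gap between neighbouring peaks was 801 bp, and the shortest peak was 200 bp. Such equal limits may come from the peak calling, which was not tested. A neighbour within 1 kb thus means a gap between 801 bp and 1 kb. The median gap was 42254 bp for H3K4me3 and 27179 bp for H3K9me3. A neighbour of the same mark within 1 kb was found for 11.2% of H3K4me3 and 2.0% of H3K9me3 peaks, and one within 100 kb for 87.6% and 97.2%. The SD of the gaps over their mean was 2.64 for H3K4me3 and 3.05 for H3K9me3, and the largest gaps, 21476203 and 21057131 bp, were of like size. Gaps that span stretches without a region of any list are included in these values. At 10 kb the shares were close, 43.0% for H3K4me3 and 41.0% for H3K9me3, and their order turned when peaks within 1 kb were joined (35.9% and 39.9%). Runs of at least 3 peaks with gaps of up to 10 kb numbered 1115 for H3K4me3, with up to 14 peaks, and 2544 for H3K9me3, with up to 10. They held similar shares of each list, 16.8% and 15.7%. An origin met 91.8% of the H3K4me3 runs and 87.9% of the H3K9me3 runs, and a peak of the other mark met 48.4% and 21.2%. With the chromosomes cut into pieces of 5000 bp, 30.1% of the pieces met an origin. The runs were longer, with median widths of 14998 and 12521.5 bp, and no background of that length was counted. Since the H3K9me3 list is the longer one, the shares with the other mark do not compare the marks on like terms.

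Along the chromosomes, the density of the marks was not opposed. In 2894 windows of 1 Mb, the median number of peaks was 6 for H3K4me3 (interquartile range 2 to 11, maximum 69) and 19 for H3K9me3 (11 to 27, maximum 65). No peak was found in 285 windows (9.85%) for H3K4me3 and in 161 (5.56%) for H3K9me3. Only 2734 windows had a region of any list, so nearly all windows without H3K9me3 were empty in every list. The variance over the mean was 8.74 and 6.43, so the numbers per window were more unequal for H3K4me3. The rank correlation of the marks over windows was 0.63. It was 0.56 over the 2734 windows in which any of the 8 lists had a region. The median number of H3K9me3 peaks was 13 in windows with 1 to 4 H3K4me3 peaks, 20 with 5 to 9, 25 with 10 to 19, and 28 with 20 to 39 as well as with 40 or more. Over the same classes the median number of origins was 20, 43, 68, 89 and 108. H3K9me3 therefore levelled off where H3K4me3 and origins went on to higher densities.

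Over these windows the rank correlation with the number of origins was 0.73 for H3K4me3 and 0.83 for H3K9me3, and with CUL4A it was 0.81 and 0.84. With CDT2 it was 0.65 and 0.77. With the HCT116 RepID KO origins the order of the marks turned, with 0.82 for H3K4me3 and 0.74 for H3K9me3. All these lists share the mappability, the base composition and, in part, the cells and the control, so the correlations are a description. The H3K9me3 list was sparse in 1 stretch of the kind the mark is known for. This was chromosome 19 between positions 20000001 and 25000000, known for a dense cluster of zinc-finger genes and looked up after the counts had been seen. Its 5 windows held 1 to 6 H3K9me3 peaks each, 2 to 8 H3K4me3 peaks and 0 to 5 origins. All these lists were thus sparse there, and mappability was not examined. Other zinc-finger clusters, repeats and heterochromatin were not counted. H3K9me3 is used here as the name of the antibody target and of its list.

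By chromosome, H3K4me3 density varied 6.24-fold, from 4.40 peaks per Mb on chromosome 13 to 27.5 on chromosome 19. H3K9me3 density varied 2.82-fold between the same chromosomes, from 9.68 to 27.3 peaks per Mb. H3K9me3 peaks outnumbered H3K4me3 peaks on 21 of 22 chromosomes, most on chromosome 8 with 3.25 H3K9me3 peaks for each H3K4me3 peak. On chromosome 19 the numbers were nearly equal, 1624 for H3K4me3 and 1614 for H3K9me3. Chromosome 19 also had the highest shares of peaks that met the other mark, 18.7% of H3K4me3 and 19.5% of H3K9me3. The rank correlation of the densities over 22 chromosomes was 0.81, and 0.78 without chromosome 19. With the density of origins it was 0.86 for H3K4me3 and 0.92 for H3K9me3.

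The share of peaks at an origin followed the chromosome as well. It ran from 29.6% on chromosome 13 to 77.4% on chromosome 17 for H3K4me3 and from 22.4% on chromosome 13 to 68.6% on chromosome 22 for H3K9me3. H3K4me3 had the higher share on 22 of 22 chromosomes, and the intervals of the marks did not overlap on 20. These shares make no allowance for the greater width of H3K4me3 peaks. Origins themselves were 10.7 per Mb on chromosome 13 and 72.1 on chromosome 17. Each share was also set against fixed tiles on the same chromosome (2000 bp for H3K4me3, 300 bp for H3K9me3). The ratio to tiles was highest on chromosome 13 and lowest on chromosome 17 for both marks. For H3K4me3 it was 6.56-fold on chromosome 13 and 1.83-fold on chromosome 17, and for H3K9me3 7.65-fold and 1.95-fold. On every chromosome this ratio was higher for H3K9me3 than for H3K4me3, with 3.03 and 2.68 on chromosome 1 and 3.13 and 3.10 on chromosome 3. Chromosome 13 thus had low shares, few origins and a high ratio to tiles. The ratio has less room where tiles often meet an origin. Of the tiles of 2000 bp, 42.3% did so on chromosome 17 and 4.51% on chromosome 13. The order of the ratios therefore does not show what sets the shares, which was not tested.

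**Figure D2:**
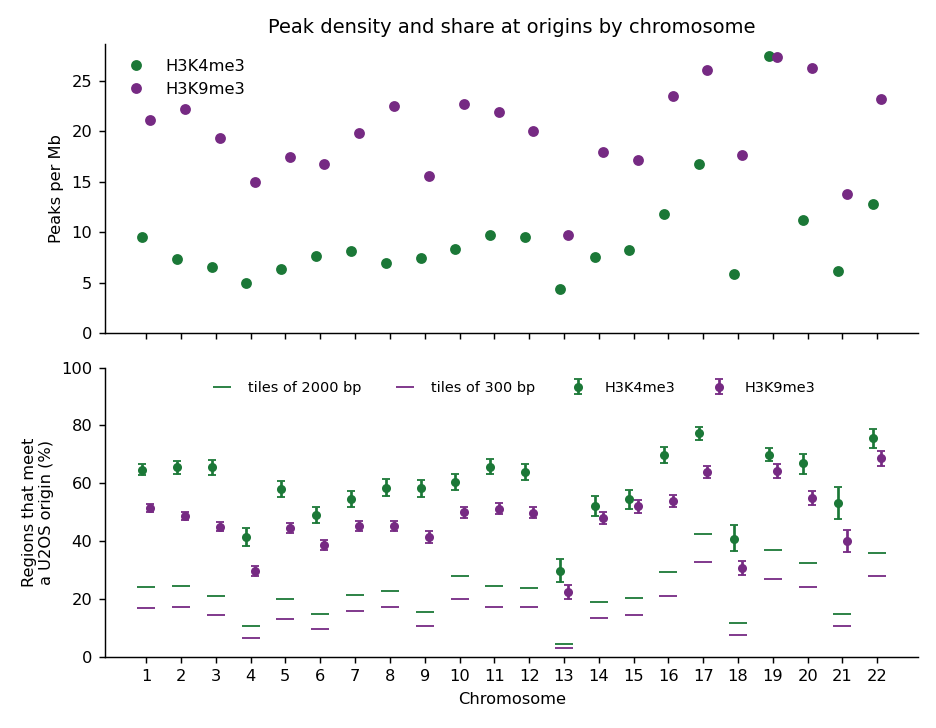
Peaks per Mb (upper panel) and the percentage of peaks that met a U2OS origin (lower panel, points with Wilson 95% intervals) for H3K4me3 (green) and H3K9me3 (purple) on chromosomes 1 to 22, with short bars for fixed tiles of 2000 and 300 bp. H3K9me3 was denser on all chromosomes except 19, where the densities were 27.5 and 27.3 per Mb, and the H3K4me3 share at origins was the higher one on all 22. As a ratio to the tiles, the H3K9me3 share was the higher one on every chromosome.

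Few peaks carried both marks. At least 1 bp was shared with an H3K9me3 peak by 3220 H3K4me3 peaks, a share of 13.3% (12.9 to 13.7%), where 4.75% of all tiles of 2000 bp met an H3K9me3 peak. Of the H3K9me3 peaks, 3320 met H3K4me3, a share of 5.91% (5.72 to 6.11%), where 2.16% of all tiles of 300 bp did. Both shares stood at a similar distance from their tiles, 2.80-fold and 2.73-fold. The shared length was 1280535 bp, which is 2.32% of the H3K4me3 and 4.92% of the H3K9me3 length. Of the H3K9me3 peaks that met H3K4me3, 56.4% lay fully inside it, and 16.4% of the H3K4me3 peaks that met H3K9me3 lay fully inside that mark.

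The overlap had a U shape over the width of H3K4me3 peaks, without allowance for width. An H3K9me3 peak met 1.49% of tiles of 300 bp and 4.75% of tiles of 2000 bp. No wider tiles were counted against H3K9me3, so the widest class has no background of its own. H3K9me3 met 19.1% (17.3 to 21.0%) of H3K4me3 peaks under 250 bp and 18.9% of those of 250 to 499 bp. The share was 10.8%, 8.51% and 9.59% in the next classes (500 to 999 bp, 1000 to 1999 bp and 2000 to 3999 bp) and 19.1% (18 to 20.4%) from 4000 bp up. In the class of 250 to 499 bp, 481 of 3509 H3K4me3 peaks (13.7%) formed a pair with an H3K9me3 peak in which each covered at least 50% of the other. Few H3K9me3 peaks are wide enough for such a pair with the widest H3K4me3 peaks. The number of H3K9me3 centres per Mb of H3K4me3 peak was 566 in peaks under 250 bp, 436 from 250 to 499 bp, 120 from 500 to 999 bp, and 53.3, 31.6 and 37.3 in the wider classes, where all chromosomes together had 19.5 per Mb.

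Inside wide H3K4me3 peaks, H3K9me3 lay towards the edges. In the 11743 H3K4me3 peaks of at least 2000 bp lay 1559 H3K9me3 centres. Of these, 33.0% (30.7 to 35.3%) were within 10% of the peak's width from either end, where an even spread would place 20%. The next steps towards the middle held 23.7%, 17.1%, 12.8% and 13.4% (11.8 to 15.2%). Just outside H3K4me3 peaks, H3K9me3 was sparser than further away: 13.8 centres per Mb within 1 kb of a peak's end, 19.7 from 1 to 2 kb, and 24.1, 24.3 and 23.8 from 2 to 5, 5 to 10 and 10 to 20 kb. Beyond that the density went down again, to 18.8 per Mb between 100 and 200 kb. H3K9me3 was thus low in a narrow band at the border of H3K4me3 peaks and above its mean of 19.5 per Mb in rings from 2 to 100 kb around them. Around H3K9me3 peaks, H3K4me3 had 10.6 centres per Mb within 1 kb, 9.60 from 1 to 2 kb and 10.3 from 2 to 5 kb. Between 100 and 200 kb it had only 4.23. Wide H3K4me3 peaks that overlap H3K9me3 can have their centre in the nearest rings, so these counts cannot show whether such a band exists. By coverage, H3K4me3 took up 2.32% and 2.33% of the bases near 1250 bp on either side of H3K9me3 centres. From 15 to 20 kb it took up 2.57%.

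H3K4me3 peaks were nearer to the other, more numerous mark than H3K9me3 peaks. The nearest H3K9me3 peak was a median of 11829 bp from an H3K4me3 peak (interquartile range 3446 to 28298 bp), and the nearest H3K4me3 peak was 42969 bp from an H3K9me3 peak (13795 to 113046 bp). Within 10 kb, 45.6% of H3K4me3 peaks and 20.3% of H3K9me3 peaks had a peak of the other mark, and within 100 kb 97.3% and 72.1%. The remotest H3K4me3 peak lay 428766 bp from H3K9me3, whereas the remotest H3K9me3 peak lay 1732418 bp from H3K4me3.

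**Figure D3:**
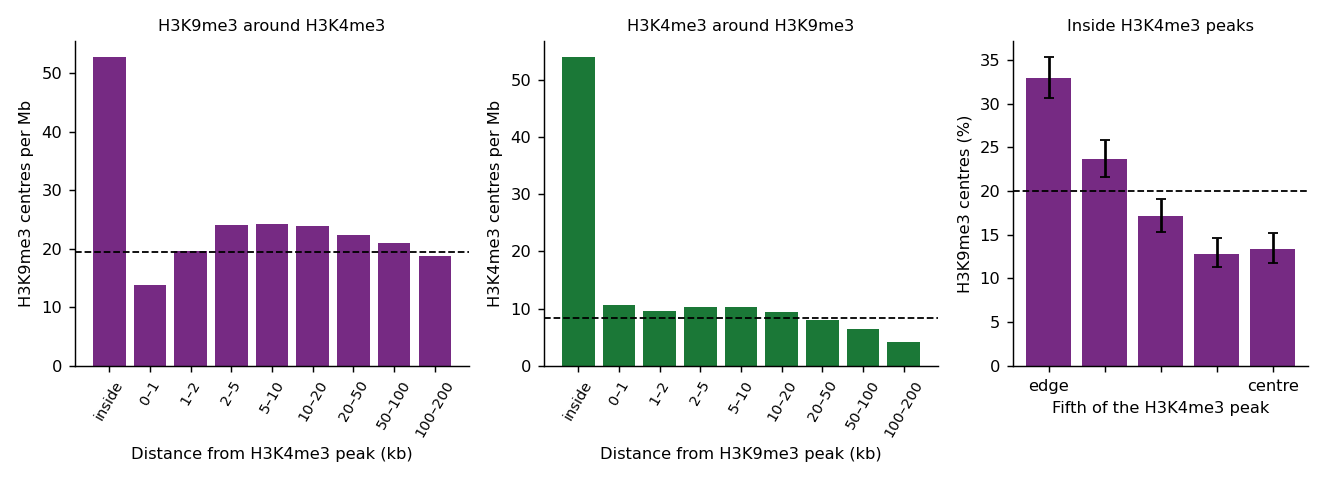
Peak centres per Mb by distance from the nearest peak of the other mark in kb (left: H3K9me3 around H3K4me3, middle: H3K4me3 around H3K9me3, dashed line: whole chromosomes), and H3K9me3 centres by position in H3K4me3 peaks of at least 2000 bp, from the edges (left bar) to the centre (right panel, Wilson 95% intervals, dashed line: even spread). H3K9me3 had 52.8 centres per Mb inside H3K4me3 peaks and 13.8 in the first kb outside.

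H3K4me3 peaks were at origins more often than H3K9me3 peaks. An origin met 14789 H3K4me3 peaks, 61.0% (60.4 to 61.7%), where 21.5% of all tiles of 2000 bp met one. For H3K9me3 it was 26609 peaks, 47.4% (46.9 to 47.8%), where 15.2% of all tiles of 300 bp did. Wider regions meet an origin more easily, and the difference between the marks depended on width. Among peaks under 250 bp, the share was 49.1% (46.8 to 51.4%) for H3K4me3 and 37.5% (36.7 to 38.2%) for H3K9me3. From 250 to 499 bp it was 50.6% and 49.0%, with intervals that overlapped. In the wider classes H3K9me3 had the higher share: 52.5% against 49.1% from 500 to 999 bp, 61.2% (59.7 to 62.6%) against 53.2% (51.7 to 54.8%) from 1000 to 1999 bp, and 73.2% against 65.5% from 2000 to 3999 bp. From 4000 bp up, 83.1% of 4235 H3K4me3 peaks and 3 of 3 H3K9me3 peaks were at an origin. With the width classes of H3K9me3 weighted as in H3K4me3, its share was 67.0%, of which the widest class rests on 3 peaks. Against tiles of like width, the shares were 2.81-fold higher for H3K4me3 and 2.93-fold for H3K9me3.

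By centres, which do not depend on width, 51.6% of H3K4me3 and 46.0% of H3K9me3 lay in an origin, and origins made up 14.4% of the chromosome length. H3K4me3 had 30.2 centres per Mb inside origins and 4.76 outside, a ratio of 6.35, and H3K9me3 had 62.4 and 12.3, a ratio of 5.07. Peaks that were not at an origin were mostly near one, at a median distance of 6663 bp for H3K4me3 and 8345 bp for H3K9me3. Only 439 H3K4me3 peaks (1.81%) and 1333 H3K9me3 peaks (2.37%) were more than 100 kb from an origin.

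The share at origins varied with the fold enrichment within a mark. With the peaks cut into 4 groups of like size by fold enrichment, the H3K4me3 share was 56.5%, 50.8%, 61.3% and 75.5% from the weakest to the strongest group. These groups also differed in median width, from 457 bp to 3540 bp. The H3K9me3 share was highest in the weakest group (55.4%, 54.6 to 56.3%), 42.7% and 42.4% in the middle ones and 48.9% in the strongest, and the median widths of these groups were 378, 334, 274 and 318 bp. By −log10 q the direction for H3K9me3 was another: peaks with a value of at least 2 were at origins in 51.1%, above the 47.4% of all H3K9me3 peaks.

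**Figure D4:**
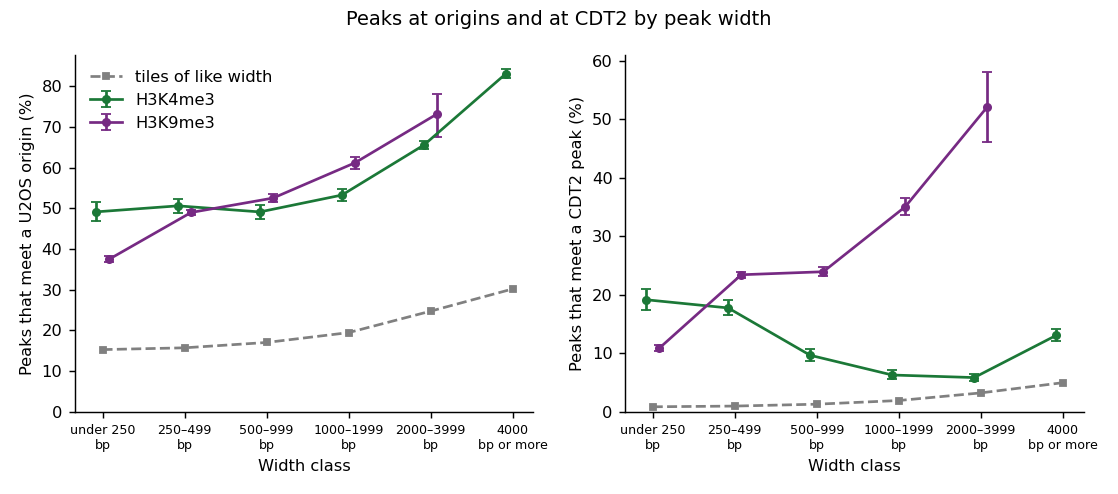
Percentage of H3K4me3 (green) and H3K9me3 (purple) peaks that met a U2OS origin (left) or a CDT2 peak (right) by peak width class, with Wilson 95% intervals, and of fixed tiles of like width (grey squares). Classes with fewer than 100 peaks are not drawn. The origin shares of the marks crossed near 500 bp, whereas the CDT2 shares ran in opposite directions up to the class of 2000 to 3999 bp, with 5.82% for H3K4me3 and 52.1% for H3K9me3.

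H3K9me3 peaks were at CDT2 more often than H3K4me3 peaks. A CDT2 peak met 10.4% (10.0 to 10.7%) of H3K4me3 peaks and 20.8% (20.5 to 21.2%) of H3K9me3 peaks, where 2.42% of tiles of 2000 bp and 0.900% of tiles of 300 bp met one. Up to 3999 bp the shares of the marks ran in opposite directions over width. The H3K9me3 share was 10.8% under 250 bp, 23.4% from 250 to 499 bp, 35% from 1000 to 1999 bp and 52.1% (46.1 to 58.1%) from 2000 to 3999 bp. For H3K4me3 it was 19.1% under 250 bp, 17.7% from 250 to 499 bp, 6.26% from 1000 to 1999 bp and 5.82% (5.31 to 6.37%) from 2000 to 3999 bp, where 3.20% of tiles of 2900 bp met CDT2, and it was higher again, 13.0% (12.1 to 14.1%), from 4000 bp up. By fold enrichment, the strongest of the 4 H3K9me3 groups had the highest share, 34.9%, against 14% to 18% in the others. CDT2 and the marks may come from different U2OS lines, as stated above, and what this changes was not tested.

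CUL4A met similar shares of the marks, 37.2% of H3K4me3 and 35.8% of H3K9me3 (8.64% and 5.78% of the tiles). The direction of this small difference turned when only 1 kb around each centre, peaks with a −log10 q of at least 2 or peaks at least 50% covered were counted. At like width the marks did differ: from 1000 to 1999 bp CUL4A met 30.3% (28.9 to 31.7%) of H3K4me3 and 54.7% (53.2 to 56.2%) of H3K9me3 peaks, and under 250 bp it met 37.0% and 24.9%. SKP2 of HCT116 WT cells met 4.37% and 4.30% (1.03% and 0.325% of the tiles), and SKP2 of RepID KO cells 3.67% and 4.55% (1.16% and 0.371% of the tiles).

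The HCT116 RepID KO origins, from another cell line, gave the largest difference between the marks in percentage points among the 6 lists set against them. Relative to tiles, CDT2 differed most, 4.28-fold for H3K4me3 and 23.1-fold for H3K9me3, against 4.80-fold and 2.72-fold for these origins. They met 70.0% (69.4 to 70.5%) of the U2OS H3K4me3 peaks and 28.3% (28.0 to 28.7%) of the H3K9me3 peaks, where 14.6% of tiles of 2000 bp and 10.4% of tiles of 300 bp met one. H3K4me3 was ahead at every width with over 100 peaks of each mark: 41.0% against 21.8% under 250 bp, 48.2% against 29.0% from 250 to 499 bp, 52.6% against 31.8% from 500 to 999 bp, 68.8% against 39.3% from 1000 to 1999 bp and 82.3% against 48.3% from 2000 to 3999 bp. It was also ahead among peaks at a U2OS origin (81.7% and 45.8%) and among those at none (51.5% and 12.7%). Thus 4863 H3K4me3 peaks without a called U2OS origin had a called origin in the HCT116 RepID KO cells. How completely each list calls origins is unknown. Cell line and RepID status differ together between the origin lists and cannot be told apart.

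Sites that carried both marks stood out in the ligase lists. CDT2 met 45.1% (43.4 to 46.8%) of the H3K4me3 peaks that met H3K9me3 and 5.04% (4.75 to 5.34%) of those that did not. For H3K9me3 peaks with and without H3K4me3 it was 43.2% (41.5 to 44.9%) and 19.4% (19.1 to 19.8%). CUL4A met 76.3% and 31.2% of these H3K4me3 peaks, and 73.6% and 33.4% of these H3K9me3 peaks. The difference was present away from origins too. Away from origins, CDT2 met 31.4% (27.8 to 35.2%) of the 593 H3K4me3 peaks with H3K9me3 and 2.23% (1.94 to 2.56%) of the 8845 without. At origins it was 48.2% of 2627 and 7.08% of 12162. SKP2 in HCT116 WT cells followed the same order, with 13.2% and 4.37% at origins and 11.3% and 1.29% away from them. The H3K4me3 peaks with H3K9me3 were somewhat narrower than those without (median 1775 and 1912 bp). At origins these medians were 2080 and 2531 bp, and away from origins 859 and 1221 bp. The shares of H3K4me3 peaks with and without H3K9me3 at CDT2 and CUL4A were not compared at like width. Peaks with both marks were also more often at origins, 81.6% against 57.9% for H3K4me3 and 78.8% against 45.4% for H3K9me3.

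Seen from the origins, 90649 of 126050 (71.9%) met no peak of either mark. H3K9me3 alone was found at 20640 (16.4%, 16.2 to 16.6%), H3K4me3 alone at 11302 (8.97%, 8.81 to 9.13%) and both at 3459 (2.74%, 2.66 to 2.84%). Origins with both marks were the widest, with a median of 5000 bp, against 3000 bp with H3K4me3 alone, 2800 bp with H3K9me3 alone and 2200 bp with neither. The share with both was 1.23-fold the product of the shares of each mark (2.24%). Within classes of origin width it was 1.10-fold under 2000 bp, 0.990-fold from 2000 to 3999 bp, 0.996-fold from 4000 to 9999 bp and 1.04-fold from 10000 bp up. At origins of like width, the marks thus coincided about as often as that product gives.

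The classes also differed in what their origins met, at like width. Under 2000 bp, CDT2 met 34.7% of origins with H3K9me3 alone, 6.48% with H3K4me3 alone, 6.0% with neither and 56.3% (52.1 to 60.4%) with both. In the same width class, HCT116 RepID KO origins met 71.9% (70.3 to 73.5%) of origins with H3K4me3 alone, 62.8% with both, 29.3% (28.2 to 30.5%) with H3K9me3 alone and 24.8% with neither. CUL4A met 80.0% with both, 45.4% with H3K9me3 alone, 34.7% with H3K4me3 alone and 14.9% with neither. For CDT2, the intervals of origins with H3K4me3 alone and with neither overlapped in all 4 width classes, for example 5.55% (4.90 to 6.28%) and 5.49% (5.26 to 5.73%) from 2000 to 3999 bp. At 10000 bp or more the classes came closer together for HCT116 origins, with 95.2% for H3K4me3 alone, 86.4% for H3K9me3 alone and 80% for neither.

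**Figure D5:**
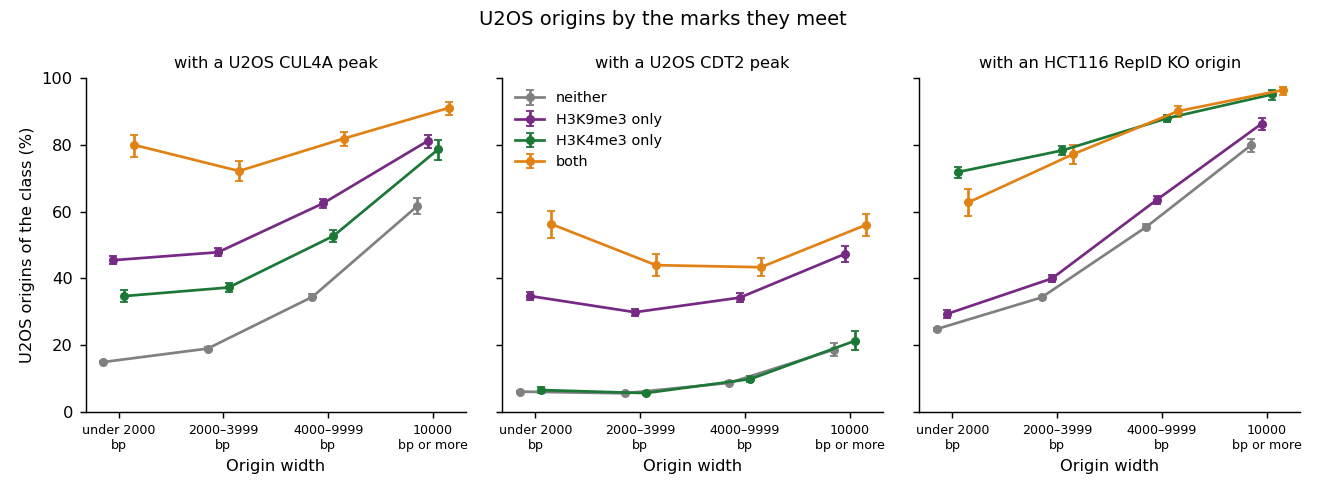
Percentage of U2OS origins with a U2OS CUL4A peak (left), a U2OS CDT2 peak (middle) or an HCT116 RepID KO origin (right), by origin width and by the marks the origin met, with Wilson 95% intervals. For CDT2, the intervals of origins with H3K4me3 alone and with neither mark overlapped at all widths, and for HCT116 origins the H3K9me3-only class lay nearest to neither at all widths.

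Most marked origins held a single peak of a mark. At least 2 peaks lay on 7.78% of the origins with H3K4me3 and on 8.51% of those with H3K9me3. The origin with the most H3K4me3 peaks, 14, was chr1:228742601-228784600, a region of 42000 bp that met CUL4A and no H3K9me3 peak. It was followed by chr7:6490601-6708000 with 11 and chr12:34438201-34525200 with 10, which met 4 and 3 H3K9me3 peaks. For H3K9me3 the highest numbers were 13 at chr7:5066601-5168200, 11 at chr7:2067001-2216000 and 9 at chr8:142569801-142653800, and each of these origins met CUL4A and CDT2.

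The 3 H3K4me3 peaks with the highest fold enrichment met both H3K9me3 and the ligase proteins, which was not general among strong peaks: H3K9me3 met 15.8% of the strongest of the 4 H3K4me3 groups. The highest fold enrichments were 59.5 at chr19:56088650-56093318, 57.1 at chr13:19687583-19695882 and 54.3 at chr1:54409163-54416016, and all of these met an origin, CUL4A, CDT2 and H3K9me3. Of the widest H3K4me3 peaks, chr8:145006645-145029365 (22721 bp) and chr20:56269468-56289508 (20041 bp) met no H3K9me3, while chr6:33379076-33400274 (21199 bp) met 3 H3K9me3 peaks that shared 1424 bp with it. The other wide H3K4me3 peaks that covered an H3K9me3 peak were chr17:4840266-4856693 (16428 bp) and chr9:98265584-98279982 (14399 bp). The windows with the most H3K4me3 peaks were chr19:1000001-2000000 with 69, and the adjoining chr6:28000001-29000000 and chr6:27000001-28000000 with 64 and 59. They held 21, 19 and 15 H3K9me3 peaks, close to the median of all windows.

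The 3 H3K9me3 peaks with the highest fold enrichment lay together in 1 stretch and met none of the ligase proteins. The highest fold enrichments were 61.7 at chr1:212273441-212274554, 57.1 at chr1:212253804-212254240 and 55.6 at chr1:212238109-212238513. In chr1:212216246-212276402 lay 11 H3K9me3 peaks with fold enrichments of 12.4 to 61.7, of which 5 were among the 8 strongest on chromosomes 1 to 22. All 11 lay far above the 90th percentile of the H3K9me3 list, 5.57. Whether they reflect the mark or another source of reads was not tested, and no gene was assigned to the stretch. Of these 11 peaks, 0 met H3K4me3, CUL4A, CDT2 or SKP2, and 1 met an origin. The remaining 3 of the 8, on chromosomes 12, 2 and 1, each met an origin, CUL4A, CDT2 and H3K4me3.

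The widest H3K9me3 peaks, chr4:190848576-190852844 (4269 bp), chr15:74926377-74930611 (4235 bp) and chr20:36050353-36054352 (4000 bp), all met an origin, CUL4A and CDT2. The first of them met H3K4me3 over 290 bp. Among those in or over an H3K4me3 peak followed chr13:87410075-87413404 (3330 bp, 2652 bp of it shared), which met no origin, and chr10:43731150-43734410 (3261 bp). The longest H3K9me3 run, chr2:218696493-218749099, held 9 peaks in 52607 bp and met 11 origins and 2 H3K4me3 peaks. The runs chr9:36741111-36786865 and chr20:23660503-23706039 held 8 peaks, 5 origins and 1 H3K4me3 peak each. The windows with the most H3K9me3 peaks were chr1:37000001-38000000 with 65, chr8:142000001-143000000 with 63 and chr19:51000001-52000000 with 62. Their H3K4me3 peaks numbered 8, 13 and 42, all above the median of 6 over all windows.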

How the data were processed

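The authors called the peaks before deposit, and no reads were used here. Their methods name SICER (window 200 bp, gap 600 bp) for the histone marks, called against a control, whereas the deposited histone lists have the form of MACS broad peaks. The submitters' processing notes name MACS, SICER and build hg19, without versions. The deposited lists give each histone peak a fold enrichment (a ratio to the control), a −log10 p, a −log10 q and an integer score. The fold and −log10 q were used to rank and filter peaks within a mark, with their medians given side by side, and the scores were not used.

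Regions met when they shared at least 1 bp. As a background, chromosomes were cut into fixed tiles, and the share of tiles that met a list was counted. A chromosome's length was its largest end over the 8 lists. Named sites are those with the highest fold enrichment, width or peak number of each mark, 3 of each kind, and the wide peaks of a mark that cover or lie in the other. The members, lists and tests were chosen with earlier results of these data known. Genes were not assigned, since no annotation of hg19 was used here, and 3 inputs have no list. Overlap functions were tested on simulated data. Python 3.11.15, NumPy 2.4.6, SciPy 1.17.1, pandas 2.3.3 and matplotlib 3.10.9 were used.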

Additional observations from a re-analysis of the deposited data

How the results depend on the processing

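With 1 sample per mark, only processing choices could be varied, and counting intervals leave out differences between cultures, antibodies and libraries. Peak lists also hide depth and regions that could not be mapped. Of 121 values recomputed under alternatives, 46 stayed within the interval of the reported share, within 1.5-fold of a reported median or within 0.1 of a correlation, 68 moved further and 7 turned sign. The cause was not tested. No paired analysis was possible because each group has 1 sample. The share of gene starts with each mark, at 1 kb or 2 kb and for all peaks or those with a −log10 q of at least 2, was not run, since no annotation of hg19 was used here.

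With the stronger 50% of each mark, the median H3K4me3 width was 3267 bp, the median gaps were 85189 bp (H3K4me3) and 57526 bp (H3K9me3), and 17.8% and 23.2% of peaks had a neighbour within 10 kb, so that the order of the marks turned. The median per window was 3 and 10, the rank correlation over windows 0.48, the mutual overlap 7.45% and 3.29%, the distance to the other mark 27676 and 91882 bp and the share at origins 68.4% and 45.7%. The H3K4me3 minus H3K9me3 difference was 2.27 percentage points at CUL4A, -17.7 at CDT2, 1.01 at HCT116 WT SKP2, -0.53 at RepID KO SKP2 and 56.5 at HCT116 origins.

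With a −log10 q of at least 2, neighbours within 10 kb were found for 40.4% and 30.9%, the median per window was 12 for H3K9me3, the mutual overlap 10.4% and 6.54%, the distance from H3K4me3 18464 bp and the H3K9me3 share at origins 51.1%. Origins had H3K4me3 alone in 9.26%, H3K9me3 alone in 12%, both in 2.07% and neither in 76.6%. The differences in the same order of lists were -3.59 (sign turned), -15.6, -0.73 (sign turned), -1.68 and 40.1 percentage points.

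With 1 kb around each centre, the mutual overlap was 9.60% and 4.15%, the share at origins 57.3% and 47.8%, and the differences -2.94 (sign turned), -13.4, -1.61 (sign turned), -2.09 and 38.3. With at least 50% of the counted region covered, they were 4.99% and 5.02%, 51.3% and 46.0%, and -8.12 (sign turned), -12.4, -1.72 (sign turned), -1.88 and 25.7, and the origin classes were 5.94%, 1.61%, 0.113% and 92.3%. With a gap of up to 1 kb, the mutual overlap was 15% and 6.56%, the share at origins 64.4% and 50.3%, the classes 9.69%, 17.6%, 3.13% and 69.6%, and the differences 2.75 at CUL4A, -0.079 (sign turned) and -1.21 at SKP2 and 39.8 at HCT116 origins.

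With peaks within 1 kb joined, 35.9% and 39.9% had a neighbour within 10 kb. The rank correlation over windows was 0.53 at 500 kb and 0.76 at 5 Mb. With chromosome X, the shares at origins were 59.7% and 46.7%. Tiles limited to windows with any region, an alternative chosen after seeing the data, gave a ratio of the share at origins to tiles of 2.68 for H3K4me3 and 2.93 for H3K9me3, against 2.84 and 3.11 over all tiles. In these alternatives, which count peaks of all widths together, H3K9me3 was the mark more often at CDT2, and H3K4me3 the one more often at U2OS and HCT116 origins. At like width the order turned: H3K9me3 was more often at U2OS origins from 500 bp up, and H3K4me3 more often at CDT2 under 250 bp.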

Other observations

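The regions of the other lists were also counted by the marks they met. Of the CDT2 peaks, 43.4% met H3K9me3 and 9.61% met H3K4me3, and of the CUL4A peaks 33.2% and 16.2% did. SKP2 peaks of HCT116 WT cells met H3K9me3 in 20.3% and H3K4me3 in 9.01%, and those of RepID KO cells in 18.9% and 6.63%. The HCT116 RepID KO origins were the only list of these 5 that met H3K4me3 (18.6%, 18.3 to 18.8%) more often than H3K9me3 (16.7%, 16.4 to 16.9%), although the H3K9me3 list holds more peaks. CDT2 peaks were at a U2OS origin in 86.4% with both marks, 79.0% with H3K4me3 alone, 68.1% with H3K9me3 alone and 55.4% with neither.

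Chromosome X was outside the comparison. It held 910 H3K4me3 peaks (5.86 per Mb) and 1420 H3K9me3 peaks (9.15 per Mb), and an origin met 24.1% (21.4 to 26.9%) and 19.9% (17.9 to 22%) of them. HCT116 RepID KO origins met 52.4% and 14.3%, the same order of the marks as on the other chromosomes.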
